A study of Mus musculus with 17 samples.

Results

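Wild-type (WT) induced pluripotent stem cells (iPSC) were compared with WT embryonic stem cells (ESC) of the mouse, using every library of either kind: 7 of the 17 libraries of the series, 3 of iPSC and 4 of ESC. The 7 libraries were chosen by their cell type, genotype and strain labels, not by any measured value. They fell into 2 sets. The 129/B6 set (strain label 129/B6 (v6.5)) held ESC 1 and ESC 2 at passage 10 to 15 and iPSC 1 at passage 6. The C57/B6 set (strain label c57/b6) held ESC 3, ESC 4, iPSC 2 and iPSC 3, all at passage 10 to 15. The strain goes together with the code that precedes each library's number, so strain, code and whatever else separated the sets cannot be told apart. Within 129/B6 passage differed too, and iPSC 1 was a lone library, so the state of that line and that library cannot be told apart. The protocol given for the series made iPSC from embryonic fibroblasts with retroviruses carrying the mouse factors Oct4, Klf4 and Sox2 (c-Myc was added for some lines) and kept picked colonies on feeder cells in 2i and LIF. It does not say which WT line received c-Myc, whether iPSC 2 and 3 came from 1 clone, or in which medium each WT ESC line was grown. The other libraries of the series (Nanog -/- ESC and iPSC, partially reprogrammed iPSC, called piPSC, and embryonic fibroblasts) are used below only as reference levels.

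Reprogrammed cells and embryo-derived stem cells share a self-sustaining network of transcription factors around Oct4 (gene Pou5f1), Sox2 and Nanog. They are usually compared to learn whether an iPSC line keeps marks of the fibroblast it came from, silences imprinted genes wrongly, or sits at another point between the naive state and the primed state of the epiblast. In 2i, blockers of the ERK pathway and of GSK3 hold cells in the naive state, and a few cells of a mouse culture pass at any time through a state that resembles the embryo at the 2-cell stage.

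The libraries held 7795960 to 30077204 fragments assigned to genes, and 12181 to 12476 genes reached an FPKM of 1 (FPKM is the fragment number divided by transcript length and library depth). Pluripotency markers matched the labels in all 7: the 22 markers summed to 7900 to 21350 FPKM, against 137 and 149 in the 2 fibroblast libraries. The sum does not tell full from partial pluripotency, since the piPSC libraries reached 7402 and 7814, but all 22 markers had at least 1 FPKM in each of the 7 libraries against 14 and 12 in piPSC. The sets stood far apart. FPKM summed over all genes was 579151 to 667351 in 129/B6 and 1084756 to 1614854 in C57/B6, so FPKM levels do not compare directly across sets. The first principal component carried 86.8% of the variance and separated them, ribosomal protein genes took 7.89% to 9.73% of fragments in 129/B6 and 19.4% to 26.4% in C57/B6, and the second component (7.9%) set iPSC 1 (33.6) apart from ESC 1 and 2 (-18.5 and -18.1) with the C57/B6 libraries between -3.14 and 2.45. Replicates differed unevenly: the median absolute log2 difference over genes was 0.08 between ESC 1 and 2, 0.11 between iPSC 2 and 3, and 0.31 between ESC 3 and 4, the last pair being the most loosely matched. The labels call the replicates biological without saying whether each was a culture of its own, and the p-values below speak only of the scatter among these libraries.

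With both sets in 1 fit and a term for the set, iPSC differed from ESC at 8 of the 13873 genes tested (0.0577%), all of them higher, by edgeR's quasi-likelihood test at an adjusted p under 0.05. All 8 were high in 1 library. Gm9049, the most abundant of them, stood at 2.91 and 2.49 FPKM in ESC 1 and 2 and at 71.7 in iPSC 1, and at 0.203, 0.105, 0.211 and 0.263 in ESC 3, ESC 4, iPSC 2 and iPSC 3. Its log2 change was 4.37 (adjusted p = 0.0338, edgeR). Pramel7, a gene of the PRAME-like family expressed in early embryos and ESC, read 0.436 and 0.571 in ESC 1 and 2, 11.1 in iPSC 1 and at most 0.308 in the C57/B6 libraries. The other 6 (Slfn4, H2-M10.4, Gm428, Gm10696, Gm3395 and Gm7942) had the same shape: iPSC 1 at 2.40 to 70.1 FPKM, ESC 1 and 2 at 0.0651 to 6.97 and every C57/B6 library at or below 0.340. Slfn4, Pramel7 and Gm10696 reached 1 FPKM in iPSC 1 alone, so only that library brought them into the test. None of the 8 was called in the fit within C57/B6. Their log2 changes there were 0.44 (Pramel7) to 2.41 (Slfn4), from values at or below 0.340 FPKM. They kept no call in fits without iPSC 1, ESC 1, ESC 2 or iPSC 2, which called 3, 0, 0 and 0 genes in all, and 1 of the 8 in the fit without iPSC 3. DESeq2 called 79 genes, 6 of the 8 among them.

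Read within each set, the contrast was lopsided. In 129/B6, 3499 genes passed (25.2%): 1931 were higher in iPSC 1 (13.9%) and 1568 lower (11.3%), with 1829 changed at least 2-fold. In C57/B6, 3 genes passed (0.0216%), 2 higher in iPSC (0.0144%) and 1 lower (0.00721%). There, 901 genes (6.49%) had an unadjusted p under 0.05, against 37.7% in 129/B6, and DESeq2 called 22. The difference between the 2 contrasts, tested as an interaction, passed at 1526 genes (11.0%, or 26.7% unadjusted), of which 785 had the higher change in 129/B6 (5.66%) and 741 the lower (5.34%), and 95.5% of those were also called within 129/B6. The typical gene moved by a median absolute log2 of 0.35 in 129/B6 and 0.15 in C57/B6. Genes called in 129/B6 had the same sign in C57/B6 in 50.3% of cases, against 50.6% over all genes, and the log2 changes of the 2 sets were unrelated across genes (Pearson r = -0.06, over genes that are not independent). No gene was called with the same sign within both sets, and 2 were called with opposite signs. At an unadjusted p under 0.05 in C57/B6, 186 genes called in 129/B6 had the same sign and 168 the opposite. DESeq2 called 1 gene with the same sign in both sets and 11 with opposite signs. The C57/B6 count moved most with ESC 3 and ESC 4. Leaving out ESC 3 gave 3701 calls there and leaving out ESC 4 gave 307, whereas leaving out iPSC 2 or iPSC 3 gave 0. The 129/B6 count rose with the same libraries, to 7772 and 7711, and fell to 1526 and 1631 without ESC 1 or ESC 2, which leaves 1 library against 1.

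**Figure D1:**
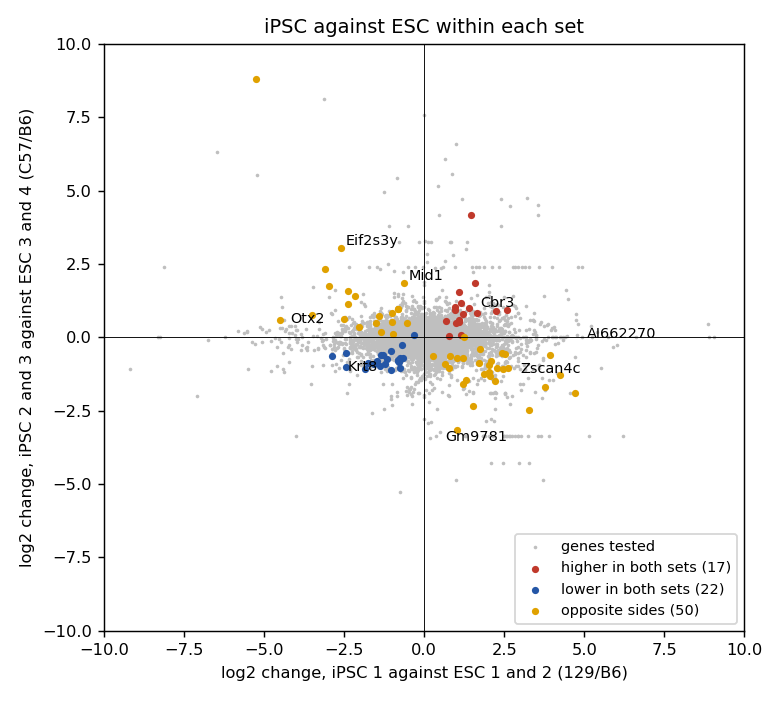
Log2 change of iPSC against ESC from the edgeR fit, in the 129/B6 set (horizontal axis) and in the C57/B6 set (vertical axis), for the 13873 genes tested. Colours mark genes whose iPSC libraries lie outside the ESC range in FPKM in both sets by at least 1.5-fold, and the cloud is wide along the 129/B6 axis with no slope.

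The genes that moved the same way in both sets were few. By a rule without a test (iPSC 1 on 1 side of ESC 1 and 2, iPSC 2 and 3 both on that side of ESC 3 and 4, and at least 1.5-fold between group means of FPKM + 1 in each set), 17 genes were higher in both sets (0.123%) and 22 lower (0.159%). On opposite sides lay 50: 29 higher in 129/B6 and lower in C57/B6 (0.209%) and 21 the reverse (0.151%). At this fold, concordant genes were thus no more frequent than discordant ones. None of the 39 passed over both sets (smallest adjusted p = 0.092, edgeR). With no minimum fold, 1022 were higher in both (7.37%), 858 lower in both (6.18%), 883 higher in 129/B6 and lower in C57/B6 (6.36%) and 874 the reverse (6.3%). At 2-fold the counts were 3 concordant and 5 discordant. Leaving out a library moved both counts, to 146 concordant and 168 discordant without ESC 3, 62 and 80 without iPSC 3, and 91 and 74 without ESC 4, where concordant genes were the more frequent. On fragment counts scaled to depth, the 1.5-fold rule gave 21 higher and 22 lower in both sets, and 47 on opposite sides. Some of the 39 met the rule in FPKM only. In C57/B6 the fragment counts gave log2 changes of 0.04 for Gm15051, 0.09 for Gpatch3 and 0.10 for Fmn1, which was lower in FPKM.

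Among the concordant genes that were lower in iPSC, the simple epithelial keratin Krt8 stood out by level. It read 6.46 and 6.59 FPKM in ESC 1 and 2 and 2.299 in iPSC 1, and 200 and 153 in ESC 3 and 4 against 98.4 and 106 in iPSC 2 and 3. The groups did not overlap within either set, although the sets differed far more than the cell types. The log2 change over both sets was -1.04 (adjusted p = 0.092, edgeR). Its partner Krt18 read 6.86 and 6.84 against 1.90, and 472 and 308 against 271 and 263, just under the 1.5-fold line in C57/B6. Acss1, a mitochondrial acetyl-CoA synthetase, had nearly the same change in both sets: 6.27 and 5.35 against 3.16, and 5.47 and 5.43 against 3.06 and 3.23, log2 changes of -0.82 (SE 0.15) and -0.81 (SE 0.14). The class IIa histone deacetylase Hdac7 read 4.64 and 5.18 against 1.94, and 5.10 and 6.75 against 2.57 and 3.52. Nkain4 read 8.40 and 7.76 against 2.59, and 15.0 and 13.5 against 9.02 and 7.64. The eye-field homeobox gene Vax2 and the translation regulator Cpeb1 were lower in the same way, Vax2 at 6.70 and 6.95 against 3.94 and at 6.58 and 4.34 against 2.37 and 2.90. The X-linked homeobox genes Rhox6 and Rhox9 and the translocator protein gene Tspo2 were lower too, but ESC 3 was far above ESC 4 in all 3 (Rhox9 43.9 against 24.98, with iPSC 2 and 3 at 20.0 and 18.3), and in 129/B6 Rhox6 was not called (adjusted p = 0.0963, edgeR).

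Of the concordant genes that were higher, Cbr3, a carbonyl reductase, had the clearest values: 5.04 and 6.82 FPKM in ESC 1 and 2 against 18.2 in iPSC 1, and 19.6 and 12.9 in ESC 3 and 4 against 29.1 and 30.1 in iPSC 2 and 3. The septin gene Sept1 read 65.4 and 63.1 against 136, and 109 and 76.2 against 134 and 150. The RNA helicase gene Dhx16 read 117 and 122 against 228, and 347 and 226 against 456 and 450. D630023F18Rik read 1.87 and 1.78 against 4.86, and 4.38 and 3.50 against 9.08 and 7.51, with a log2 change over both sets of 1.19 (adjusted p = 0.092, edgeR). In these 4 genes every iPSC library lay above the ESC of its own set, by a wider margin in 129/B6. The multidrug transporter gene Abcb1a met the rule in FPKM (9.60 and 9.74 against 32.0, and 2.72 and 3.63 against 4.54 and 26.9), but iPSC 3 carried most of its C57/B6 change and the fragment counts gave a log2 change of only 0.52 there. Gm10800, Gm10801, Gm10718 and Gm16869 also met the rule. They are short gene models that share sequence with other loci, so their fragments cannot be placed with certainty.

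Because ESC 3 and ESC 4 were the most loosely matched pair, calls were also read with each left out, a step added after seeing the data. Without ESC 3, 978 genes were called with the same sign in both sets (460 higher, 518 lower) and 1055 with opposite signs. Without ESC 4 the counts were 126 (39 and 87) and 89. In both of these fits 25 genes were called with the same sign, 13 higher and 12 lower, 6 of them among the 39 concordant genes: Cbr3 and Sept1 higher, and Acss1, Krt8, Mmp11 and Nkain4 lower. The other lower genes included Krt18, the AKT coactivator gene Tcl1 (54.3 and 57.6 against 29.9, and 100.5 and 76.8 against 66.2 and 62.6) and the glycoprotein gene Cd24a. The other higher genes included the de novo DNA methyltransferase gene Dnmt3a, the epithelial transcription factor gene Grhl2 and the imprinted growth regulator gene Grb10 (28.0 and 27.0 against 35.3, and 10.2 and 14.5 against 31.0 and 31.3). These fits have 1 ESC library in C57/B6, so their error rests on the closer pairs. Both fits share every library but ESC 3 and ESC 4, so a call in both is not independent support. All these counts are out of the 13873 genes tested, and opposite-sign calls made in both fits were not counted.

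**Figure D2:**
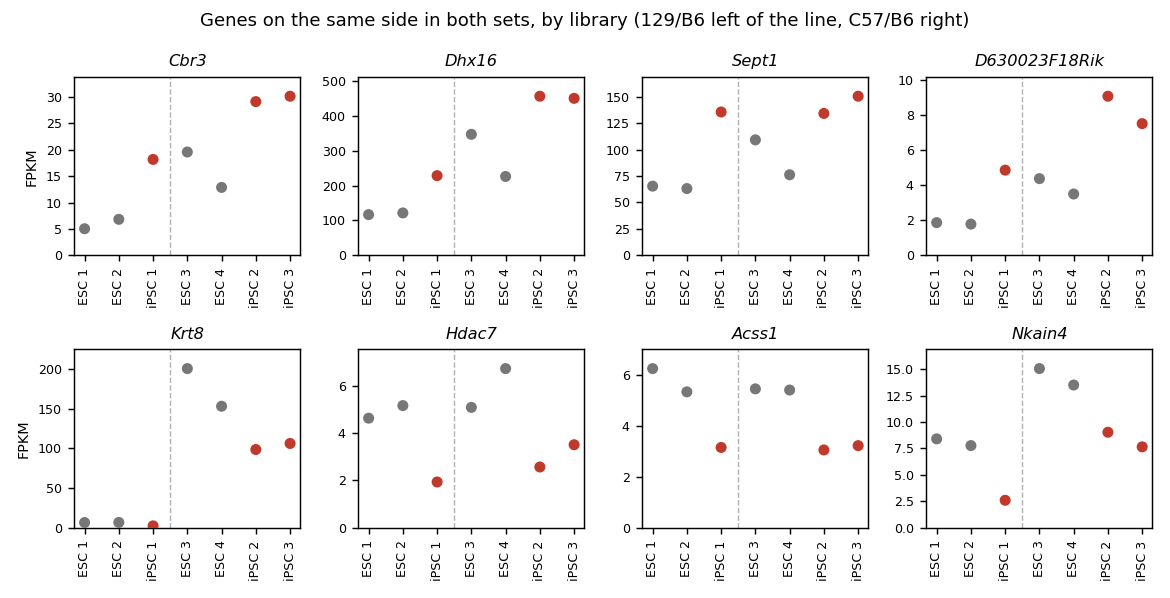
FPKM by library of 8 genes on the same side in both sets (grey, ESC; red, iPSC; each axis starts at 0). In every panel the iPSC points of a set lie outside the ESC points of that set, while the sets themselves can differ many-fold, as for Krt8.

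Only 3 genes were called within C57/B6, and 2 of them, Eif2s3y and Mid1, were called the opposite way in 129/B6. Eif2s3y, a Y-linked translation initiation factor gene, read 2.06 and 2.63 FPKM in ESC 3 and 4 and 15.9 and 14.3 in iPSC 2 and 3, a log2 change of 3.06 (SE 0.17, adjusted p = 0.000571, edgeR). In 129/B6 it fell, from 10.5 and 10.9 in ESC 1 and 2 to 1.93 in iPSC 1. The other Y-linked genes Ddx3y and Uty had the same pattern: Ddx3y 4.21 and 3.67 against 0.873, and 0.820 and 1.31 against 2.72 and 2.84. The Y-linked gene Kdm5d stayed at or below 0.395 in all 7 libraries and was not tested, and Xist, the X-inactivation RNA, was between 3.09 and 12.5 in all 7. Mid1, an X-linked ubiquitin ligase gene that spans the pseudoautosomal boundary in mice, followed Eif2s3y: 7.49 and 8.50 against 25.7 and 23.3 in C57/B6, and 176 and 170 against 100.1 in 129/B6. Its 129/B6 call was lost without ESC 1, ESC 2, iPSC 2 or iPSC 3 (adjusted p = 0.16, 0.128, 0.0637 and 0.064, edgeR). Gm9781 was the third, at 9.52 and 5.25 in ESC 3 and 4 and at 0.635 and 0.893 in iPSC 2 and 3. In 129/B6 it read 4.85 and 4.61 against 6.60, which was not called, and the difference between the sets passed (log2 3.73, adjusted p = 0.0013, edgeR). All 3 lost their C57/B6 call when iPSC 2 or iPSC 3 was left out (Eif2s3y, adjusted p = 0.0515 and 0.0502, edgeR).

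Most genes found outside the range of all other libraries were found in iPSC 1. A gene was counted as private to a library where its log2(FPKM + 1) lay at least 2 beyond the nearest of the other 6. By that rule iPSC 1 had 85 private high genes (0.613%) and 20 private low genes (0.144%), and no other library had more than 2 in all. iPSC 1 was also the only library with no partner of its group in its set. Counted for whole pairs, ESC 1 and 2 had 14 private high and 8 private low genes, and the ESC and iPSC pairs of C57/B6 had 0 each. The private genes elsewhere, 1 gene each (0.00721%), were Cbx8 in ESC 1 (58.8 FPKM against 0.555 to 1.24 in the others), Alb high and Gm17635 low in ESC 4, Pde1a in iPSC 2 (6.64 against at most 0.570) and 1 gene low in ESC 3. Fragment counts gave Cbx8 a log2 change of only -0.04 in 129/B6, so its FPKM in ESC 1 is not matched by its fragments. The same holds for Pde1a, with 11 fragments in iPSC 2 and 16 in iPSC 3. On CPM, the fragment counts scaled to depth, iPSC 1 had 120 private genes, ESC 3 and ESC 4 had 1 each and the other libraries 0.

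The 85 private high genes had a median of 26.3 FPKM in iPSC 1, 3.23 and 3.20 in ESC 1 and 2, and 0.163 to 0.278 in the C57/B6 libraries. They were thus not silent in ESC 1 and 2 but an order lower, and lower still in the other set. In Nanog -/- cells the median was 2.60 to 4.99, and the nearest approach to iPSC 1 was in the iPSC clone G5, where 19 and 21 of the 85 were nearer to iPSC 1 than to ESC 1 and 2. The 85 were picked for being high in iPSC 1, and no share over comparable genes was taken. The counts therefore do not show a likeness of iPSC 1 to clone G5. The 2 fibroblast libraries had a median of 0. Genes of the 2-cell stage were among them (Zscan4b to Zscan4f, Zfp352, Dux, Obox6 and Tmem92). All 10 tested members of the 2-cell stage list rose in 129/B6, against 13.9% of all genes, and none was called in C57/B6. The list's summed level was 675.1 FPKM in iPSC 1, 89.2 and 81.8 in ESC 1 and 2, and 1.23 to 2.77 in the 4 C57/B6 libraries. The median log2 change was 3.09, beside 0.03 over all genes. The difference between the sets itself passed at 8 of the 10.

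Zscan4c and Zscan4d are members of a cluster of zinc finger genes on chromosome 7 that are transcribed in 2-cell embryos and in the rare 2-cell-like cells of a culture. Zscan4c read 15.2 and 15.5 FPKM in ESC 1 and 2 and 114 in iPSC 1, and at most 0.614 in C57/B6. Zscan4d read 18.1 and 13.3 against 137, and Zscan4f 19.4 and 17.9 against 136. The log2 changes in 129/B6 were 2.91 (SE 0.20), 3.15 (SE 0.20) and 3.16 (SE 0.18), with adjusted p-values of 4.25e-05, 3.11e-05 and 2.20e-05 (edgeR). The copies are so alike that a fragment from one can be counted to another, so they count as 1 signal. Their promoters show how alike they are. The 3 windows below run from 250 bases before to 50 after each start (RefSeq, GRCm38.p6): Zscan4c at chr7:11005495-11005794 on the plus strand, Zscan4d at chr7:11166099-11166398 on the minus strand and Zscan4f at chr7:11397665-11397964 on the plus strand. Capitals mark the TATAAA motif.
Zscan4c: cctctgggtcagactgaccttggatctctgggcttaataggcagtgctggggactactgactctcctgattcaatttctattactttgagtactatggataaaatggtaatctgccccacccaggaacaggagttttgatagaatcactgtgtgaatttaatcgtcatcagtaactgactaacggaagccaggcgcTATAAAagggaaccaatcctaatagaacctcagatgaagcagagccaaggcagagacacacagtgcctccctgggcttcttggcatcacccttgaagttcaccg
Zscan4d: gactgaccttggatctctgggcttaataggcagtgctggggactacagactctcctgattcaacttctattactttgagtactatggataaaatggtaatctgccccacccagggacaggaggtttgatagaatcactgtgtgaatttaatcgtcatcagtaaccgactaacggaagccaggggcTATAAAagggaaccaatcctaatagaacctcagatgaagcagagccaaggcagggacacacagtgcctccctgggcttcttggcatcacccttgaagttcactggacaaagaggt
Zscan4f: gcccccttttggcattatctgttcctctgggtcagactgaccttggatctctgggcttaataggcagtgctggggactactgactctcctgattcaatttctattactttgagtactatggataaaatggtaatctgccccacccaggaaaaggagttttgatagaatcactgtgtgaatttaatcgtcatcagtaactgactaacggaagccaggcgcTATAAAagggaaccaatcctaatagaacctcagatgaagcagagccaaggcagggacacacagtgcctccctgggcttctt
Over the stretches that align, Zscan4c and Zscan4f were identical at 99.3% of positions, Zscan4c and Zscan4d at 97.2%, and Zscan4d and Zscan4f at 97.4%. Each window held the motif once on the given strand, at 54, 65 and 31 bases before the annotated start. Of 32851 promoter windows in the same table, 8.3% held it on the given strand and 13.6% on either strand.

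Other genes known from 2-cell embryos followed the cluster; Dux, Tmem92 and Obox6 are named after their values were seen. Dux, the transcription factor gene that switches on this programme, read 2.63 and 2.06 in ESC 1 and 2 and 15.2 in iPSC 1. Tmem92 read 9.98 and 9.58 against 55.7, Obox6 3.20 and 2.44 against 39.3, and Zfp352 1.14 and 1.45 against 12.3. In each case ESC 1 and 2 were close to each other and iPSC 1 was far higher. In C57/B6 Obox6 held between 1.118 and 1.43 in ESC and iPSC alike, and the rest were at or below 0.462. In bulk RNA more cells in the state and more transcript per cell cannot be told apart.

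**Figure D3:**
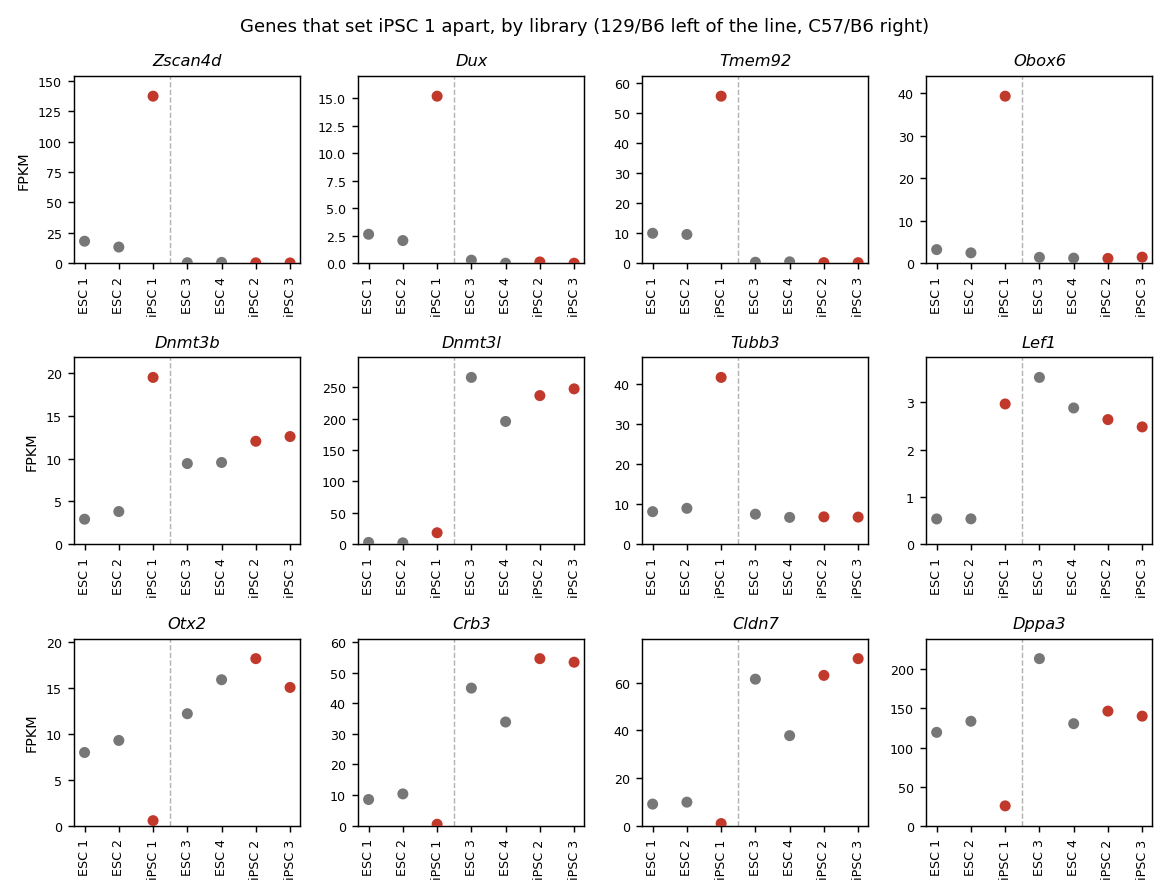
FPKM by library of 12 genes that differed in iPSC 1 (grey, ESC; red, iPSC; each axis starts at 0). The upper row holds 2-cell stage genes near 0 in C57/B6 and the middle row genes that rose in iPSC 1. The bottom row holds genes that fell in iPSC 1 and were not called in C57/B6, where Crb3 and Cldn7 were higher in both iPSC libraries.

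Genes of the formative and primed epiblast rose in iPSC 1 as a group. Of 14 tested, 12 rose and 1 fell in 129/B6 (median log2 change 1.95), beside 13.9% and 11.3% of all genes, and none was called in C57/B6 (median 0.18). The difference between the sets passed at 10. The de novo methyltransferase gene Dnmt3b read 2.94 and 3.83 FPKM in ESC 1 and 2 and 19.4 in iPSC 1, and 9.42, 9.54, 12.01 and 12.6 in ESC 3, ESC 4, iPSC 2 and iPSC 3. Dnmt3a read 24.1 and 22.2 against 80.7, and 22.6 and 27.3 against 31.7 and 36.5. The cofactor gene Dnmt3l read 3.21 and 2.53 against 18.5, and 265, 195, 236 and 247 in C57/B6. For Dnmt3l the gap in FPKM between the sets exceeded the change in iPSC 1. FPKM does not compare directly across the sets, so Dnmt3b in iPSC 1 was not ranked against C57/B6. The WNT effector gene Lef1 rose from 0.538 and 0.540 to 2.96, with 2.48 to 3.52 in C57/B6. The neural cadherin gene Cdh2 rose from 0.681 and 0.703 to 3.98. The exception was Otx2, a transcription factor gene of the primed epiblast, which fell from 7.97 and 9.29 to 0.544 (log2 change -4.00, SE 0.30, adjusted p = 6.48e-05, edgeR) while the C57/B6 libraries held 12.2 to 18.2. Fgf5, the classical marker of the primed epiblast, stayed under 0.272 in 129/B6, and its call there was lost without ESC 1 or ESC 2 (adjusted p = 0.0676 and 0.0624, edgeR).

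Targets and feedback regulators of ERK signalling rose with them: 11 of 15 tested in 129/B6, against 13.9% of all genes, none lower (median 1.14), and none called in C57/B6 (median 0.08). The phosphatase gene Dusp6 read 1.06 and 1.41 against 3.32, with 12.03 to 16.2 in C57/B6. The ETS factor gene Etv1 read 0.946 and 0.679 against 3.86, and the feedback inhibitor gene Spry2 10.6 and 12.04 against 24.4. In C57/B6 Etv1 and Spry2 read at most 1.51 and 15.4, levels that do not compare directly with those of 129/B6. Of 10 WNT response genes 6 rose and 1 fell, beside 13.9% and 11.3% of all genes (median 1.04, and -0.40 in C57/B6). Notum, a secreted WNT inhibitor gene, read 9.51 and 10.6 against 28.9, and the T-box gene T 0.166 and 0.351 against 2.099. T reached 1 FPKM in iPSC 1 alone, so it was tested only through that library. In C57/B6 T moved the other way, from 0.575 and 0.546 to 0.149 and 0.175, without a call.

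Genes of epithelial adhesion fell in iPSC 1. Of 16 tested, 14 fell and 1 rose in 129/B6 (median log2 change -1.41; 11.3% and 13.9% of all genes did so), none was called in C57/B6 (median 0.14), and the difference between the sets passed at 12, all lower in 129/B6. The polarity gene Crb3 read 8.55 and 10.38 FPKM in ESC 1 and 2 and 0.459 in iPSC 1, with 45.0, 33.9, 54.6 and 53.4 in ESC 3, ESC 4, iPSC 2 and iPSC 3. The tight junction gene Cldn7 read 9.06 and 9.87 against 0.881, and 61.5, 37.8, 63.1 and 70.1 in C57/B6. E-cadherin (Cdh1) fell less, from 163 and 159 to 71.6, with 28.6 to 36.3 in C57/B6. The desmosome gene Dsp read 12.2 and 11.2 against 1.28. Fibroblast and feeder genes moved the other way: 10 of 28 rose, against 13.9% of all genes, none fell, against 11.3% (median 0.63), and none was called in C57/B6, where 0.0216% of all genes were (median 0.01). Vimentin (Vim) read 49.9 and 53.03 against 96.4, the collagen gene Col5a1 7.02 and 6.37 against 15.4, and decorin (Dcn) 9.65 and 10.2 against 19.5. The whole list summed to 688.9 FPKM in iPSC 1 and to 554.6 and 541.9 in ESC 1 and 2, against 1947 to 2657 in C57/B6 and 14500 and 14530 in fibroblasts. Total FPKM was itself higher in C57/B6, so these sums do not compare directly across the sets. Cells were grown on feeders, and the part of feeder RNA in these changes was not tested. Col1a1, the most abundant collagen of the list, was not called (50.4 and 46.8 against 63.0).

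Pluripotency factors were less affected. Nanog read 568 and 574 FPKM in ESC 1 and 2 and 762 in iPSC 1, and 295, 323, 286 and 270 in C57/B6, and was not called in either set (adjusted p = 0.102 in 129/B6, edgeR). Pou5f1 (757 and 760 against 640), Sox2 (141 and 142 against 156) and Klf4 (65.3 and 65.0 against 57.6) were not called either. Their annotated genes would also collect fragments of a retroviral copy where it was still transcribed. Myc read 4.21 and 2.84 against 6.85 and was called in 129/B6 (adjusted p = 0.00779, edgeR), a call lost without ESC 2 (adjusted p = 0.0698). Of 20 general pluripotency genes 5 rose and 3 fell, beside 13.9% and 11.3% of all genes, so the share that fell was near that of all genes. Dppa2 rose from 61.6 and 70.4 to 212, and the RNA-binding factor gene Lin28a from 4.25 and 4.68 to 14.2 against 39.4 to 49.6 in C57/B6. Zfp42 (Rex1) fell from 227 and 220 to 55.3, with 54.5 to 61.4 in C57/B6, where FPKM does not compare directly. Of 17 naive and LIF response genes 3 rose and 2 fell, shares near those of all genes. Among them Nr0b1 rose from 45.4 and 43.3 to 104. The maternal factor gene Dppa3 (Stella) fell from 119 and 134 to 25.3, with 131 to 214 in C57/B6.

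**Figure D4:**
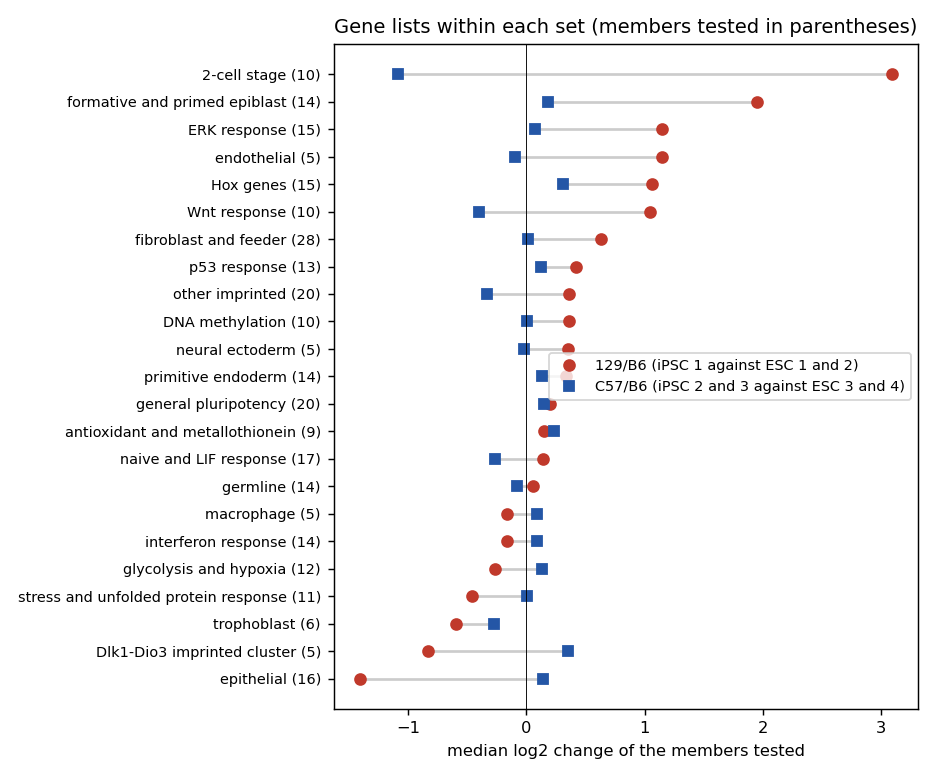
Median log2 change, iPSC against ESC, of the tested members of each gene list with at least 5 tested (number in parentheses), for 129/B6 (circles) and C57/B6 (squares). The 129/B6 medians run from -1.41 (epithelial) to 3.09 (2-cell stage). The square is closer to 0 than the circle in all lists but naive and LIF response, germline, and antioxidant and metallothionein, and the 2-cell stage list, farthest from 0 in C57/B6, had members near 0 FPKM there.

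Imprinted genes, expressed from 1 parental copy and often disturbed in cultured stem cells, were called in 129/B6 only in part and not at all in C57/B6, and some lay on opposite sides in the 2 sets. In the Dlk1-Dio3 cluster the maternal RNA Rian read 30.0 and 31.0 FPKM in ESC 1 and 2 and 15.1 in iPSC 1, and 25.5 and 29.6 in ESC 3 and 4 and 50.5 and 50.1 in iPSC 2 and 3. The groups did not overlap in either set, and the difference between the sets passed (log2 -1.85, adjusted p = 0.0027, edgeR). Meg3 read 51.9 and 51.8 against 28.6 in 129/B6, where the call was lost without ESC 1 or ESC 2 (adjusted p = 0.0584 and 0.0616), and in C57/B6 ESC 3 (94.3) lay with iPSC 2 and 3 (89.3 and 90.3) and ESC 4 (50.1) below them. In all 7 libraries Meg3 was at 28.6 or above and Rian at 15.1 or above. Dio3 was lower in iPSC of 129/B6 (log2 change -1.59) and not called in C57/B6 (-0.38). Dlk1 went the other way in 129/B6, at 1.73 and 0.604 against 2.56 (log2 change 1.48, adjusted p = 0.00828, edgeR), and was not called in C57/B6 (0.08). Of the 5 cluster members tested, 1 rose and 3 fell in 129/B6, beside 13.9% and 11.3% of all genes. Of 20 other imprinted genes, 8 rose and 2 fell in 129/B6 (13.9% and 11.3% of all genes), none was called in C57/B6, and 9 were higher in iPSC in 129/B6 and lower in C57/B6 with no overlap and no minimum fold, against 6.36% of all genes. The paternally expressed gene Nnat read 1.43 and 1.07 against 5.42, and 44.1 and 36.1 against 20.5 and 18.9. Peg3 read 3.13 and 3.18 against 12.5, and 11.8 and 21.1 against 9.02 and 7.99. The growth factor gene Igf2 read 13.1 and 13.1 against 22.5, and 137 and 113 against 93.3 and 89.1. H19 was not called in either set.

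The 20 private low genes of iPSC 1 had a median of 2.40 FPKM there, 27.6 and 28.1 in ESC 1 and 2 and 37.5 to 55.0 in C57/B6. All 20 lay below the midpoint between iPSC 1 and ESC 1 and 2 in both fibroblast libraries. So did 12 in each piPSC library and 6 or 7 in Nanog -/- libraries. The fibroblast medians, 0.274 and 0.117, were below that of iPSC 1. The genes were picked for being higher in every other WT ESC and iPSC library, and no share over comparable genes was taken. These counts therefore do not show a likeness of iPSC 1 to fibroblasts. Besides Crb3 and Otx2, the 20 genes included the glutathione transferase gene Gstm3 (15.7 and 14.4 against 1.03), the ion transport regulator gene Fxyd6 (38.7 and 36.0 against 4.40) and the interferon-induced membrane protein gene Ifitm1 (223 and 231 against 48.5). The metallothionein gene Mt2 fell from 1786 and 2126 to 322, with 2638 to 4564 in C57/B6. Hypoxia-linked genes fell too: Ndrg1 read 20.2 and 16.9 against 3.83 and Pdk1 36.0 and 32.9 against 10.2, and 4 of the 12 genes of that list fell, against 11.3% of all genes, and none rose. Germline genes split, beside 13.9% of all genes higher and 11.3% lower, with 3 of 14 higher (Dazl 26.9 and 24.8 against 58.6) and 5 lower (the cohesin gene Stag3 28.6 and 29.1 against 7.27). Some of the largest falls were in gene models that share reads with functional copies: Gm9000 read 367 and 384 against 6.49, and Gm8730 396 and 392.4 against 7.82. Those reads cannot be assigned with certainty.

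Chromosome 8 stood apart in 129/B6. Its 507 genes with a mean of at least 5 FPKM had a median log2 change of -0.44 in iPSC 1, and 17.2% of them were higher than in ESC 1 and 2. The other chromosomes had medians of -0.07 to 0.09, with 41.1% to 58.1% of genes higher. On chromosome 8, 37.7% of genes were called lower and 3.9% higher, against 9.0% and 10.9% of the 8763 genes elsewhere. In C57/B6 the median was -0.01. The libraries that stood apart were ESC 1 and ESC 2: set against them, the chromosome 8 median lay 0.31 to 0.46 below the median of all genes in each of the other 15 libraries of the series, Nanog -/- cells and fibroblasts included. Set against ESC 3 and 4, ESC 1 and 2 were 0.43 above it and the rest between -0.02 and 0.10. Among the 95 genes followed through all settings, Zfp42, Mt1, Mt2, Gm8730 and Tubb3 lie on chromosome 8. All of these but Tubb3 fell by far more than the chromosome's median. The neuronal tubulin gene Tubb3 rose, from 8.18 and 9.01 to 41.7. Without the genes of chromosomes 8 and Y, 3141 genes were called in 129/B6 (1774 higher and 1367 lower), and the 8 genes called over both sets were the same.

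**Figure D5:**
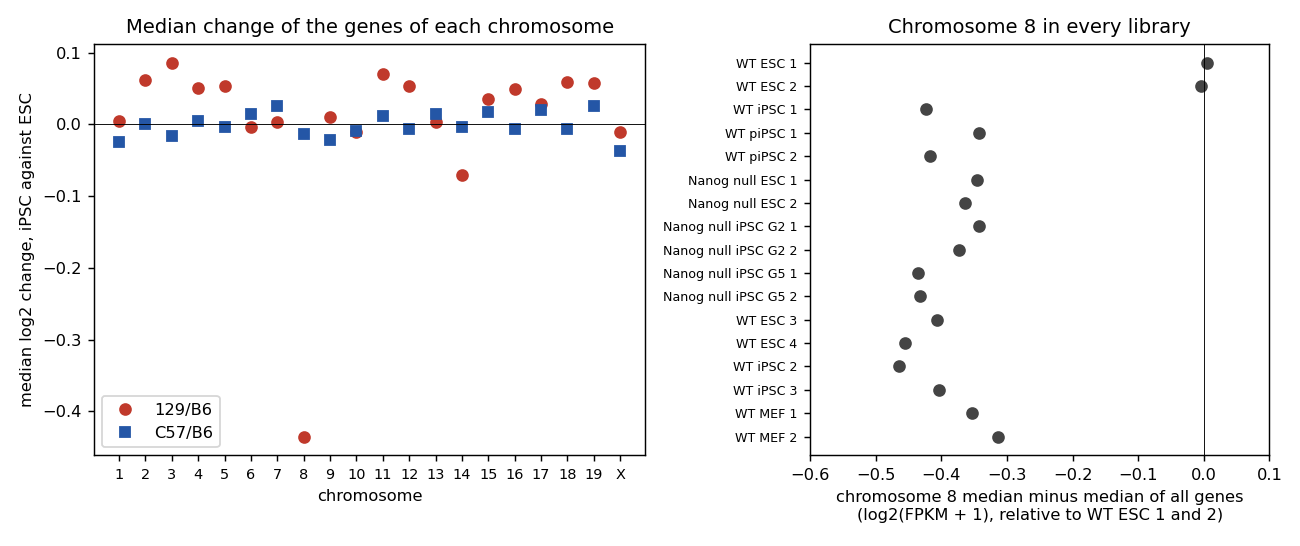
Left, median log2 change of iPSC against ESC over the genes of each chromosome with a mean of at least 5 FPKM, in 129/B6 (circles) and C57/B6 (squares). Right, for all 17 libraries, the chromosome 8 median minus the median of all genes, relative to ESC 1 and 2; every library but those 2 lies between -0.46 and -0.31.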

How the data were processed

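RNA was extracted with Trizol and libraries were made with the TruSeq RNA kit v2 and sequenced on 1 of a pair of HiSeq models, which one not being given by library, per the labels' protocols. The authors' deposited tables give, for each of 28670 genes and each library, an estimated count of fragments, an FPKM and a scaled fragment signal (the fragments times 1 factor per library), the last not used for any value here. Bowtie2 2.0.5, TopHat2 2.0.7, Cuffdiff 2.1.1, CASAVA and the builds mm10 and NCBIM37 are named in the submitters' processing notes, and strand handling is not given in the sources used here. For some genes, such as Cbx8, the FPKM and the fragments differ between libraries in different ways.

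Here 9 genes without a valid status (Esrrb, Rif1, Vegfa and Eef1a1 among them) were left out, and 13873 genes with an FPKM of at least 1 and at least 10 fragments in at least 1 of the 7 libraries were tested. A gene high in 1 library alone could thus enter through that library. Estimated counts were rounded and fitted with edgeR 4.0.16 (R 4.3.3, TMM, quasi-likelihood), Benjamini-Hochberg adjusted over all genes, with 4 residual degrees of freedom for the fit over both sets and 3 within sets. The lone iPSC 1 was assumed to vary like the other libraries. DESeq2 1.42.0 and limma 3.58.1 served as alternatives. On simulated counts for the same 13873 genes, the fit within 129/B6 recovered 6% of 1.5-fold, 58.2% of 2-fold and 98.5% of 4-fold changes, the fit within C57/B6 13.4%, 70.1% and 95.5%, and the fit over both sets 64.2%, 94% and 100%. The changes were placed only in genes with enough expected fragments and were the same in both sets, so the rates do not cover sparsely counted genes. Each gene was given the same scatter in all libraries, whereas ESC 3 and 4 were more loosely matched than the other pairs. The rates may therefore not hold for the real libraries, those of C57/B6 above all. Among unchanged genes, 14 were called within 129/B6, 10 within C57/B6 and 20 over both sets. By these rates, changes near 1.5-fold within a set were mostly beyond the tests. Chromosomes came from GENCODE by gene ID (13392 genes). The genes named were those called over both sets, the strongest concordant, private and interaction genes, and the members of 26 lists with the largest change; others are named from their lists as examples or after their values were seen. The comparison, the libraries and the lists were chosen with earlier results of these data known.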

Additional observations from a re-analysis of the deposited data

Results flagged for a closer look

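For 63 of the 95 genes followed through all settings, the change of iPSC against ESC differed between the sets by the interaction test of edgeR, against 11.0% of all genes. The 95 include genes picked for a large difference between the sets or for being private to iPSC 1, so a high count was built in. The values are log2 changes in 129/B6 minus those in C57/B6. Among 2-cell stage genes they were Zscan4b 5.74, Zscan4c 3.73, Zscan4d 4.25, Zscan4e 5.49, Zscan4f 4.23, Tmem92 3.38 and Obox6 3.88. Among methyltransferase, epiblast, ERK and WNT genes they were Dnmt3a 1.04, Dnmt3b 2.24, Dnmt3l 2.65, Otx2 -4.26, Fgf15 3.02, Lef1 2.78, Etv1 3.24, Dusp6 1.35, Dusp5 1.36, Spry4 1.36 and Myc 1.40. Among pluripotency genes they were Zfp42 -1.87, Dppa2 1.49, Lin28a 1.46, Dppa3 -2.00 and Nr0b1 1.16. Among imprinted genes they were Meg3 -1.19, Rian -1.85, Mirg -1.50, Dlk1 1.40, Nnat 3.33 and Peg3 2.96. Among epithelial and fibroblast genes they were Crb3 -4.41, Cldn7 -3.98, Dsp -2.22, Krt19 -2.74, Krt7 -3.34, Col5a1 1.14, Dcn 0.97 and Twist1 1.26. Among germline, stress, hypoxia and metal-response genes they were Stag3 -1.72, Sycp3 -1.80, Dazl 1.36, Mov10l1 -1.72, Chac1 -1.76, Trib3 -1.43, Ndrg1 -2.15, Pdk1 -1.67, Mt1 -2.46 and Mt2 -2.85. On the sex chromosomes they were Uty -5.45, Ddx3y -3.56, Eif2s3y -5.66 and Mid1 -2.48. The remaining genes were AI662270 6.23, Tubb3 2.38, Gstm3 -3.98, Ifitm1 -2.16, Fxyd6 -3.02, Gm9781 3.73, Gm8730 -5.80, Gm9000 -6.05, Gm10036 -5.76, Cdx2 6.45, Gm9049 4.15 and Tspo2 -2.24. Cdx2, the trophoblast factor gene, had at most 1.09 FPKM in any of the 7 libraries.

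For 5 of the 95 genes Dixon's test flagged 1 of the 4 ESC libraries as apart from the other 3 in FPKM. The test flags about 1 in 20 groups by chance where all libraries come from a single population. The 4 ESC libraries came from both sets, which stood far apart. That rate therefore does not apply here, and whether 5 of 95 exceeds chance was not tested. The cases were ESC 3 for Dppa3 (213.7), Meg3 (94.3) and Gm9781 (9.52), and ESC 4 for Vax2 (4.34). The last was ESC 1 for Acss1, at 6.27 against 5.35 to 5.47, a small gap.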

How the results depend on the processing

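Genes called over both sets numbered 8 with edgeR; other settings gave 79 (DESeq2), 0 (limma on log2(FPKM + 1), on log2(FPKM + 0.1), a mean of at least 5 FPKM, or no set term), 619 (no filter), 1242 (all 17 libraries), 173 (all 17 with limma, added after seeing the data) and 0 to 35 with 1 library left out. Without a filter the tests include genes near 0 fragments, and the cause of the other moves was not tested. Within 129/B6 the 3499 became 1865 and 1553 with limma at the 2 pseudocounts, 1516 at a mean of 5 FPKM, 5490 with all 17 libraries, 1829 at a log2 change of at least 1, and 1526 to 7772 with 1 library left out. Within C57/B6 the 3 became 22 (DESeq2), 1 (limma), 162 (no filter), 41 (all 17), 116 (all 17 with limma) and 0 to 3701. The interaction's 1526 became 978 and 635 with limma, 2656 (no filter), 667 (mean of 5 FPKM), 3220 (all 17), 2899 (all 17 with limma) and 244 to 5822, the lowest without iPSC 3 and the highest without ESC 3. Concordant genes numbered 39, but 3 at 2-fold, 1880 with no minimum and 40 to 146 with 1 library left out. The 105 private genes of iPSC 1 became 518 at a gap of 1 and 245 at a pseudocount of 0.1. Genes called with the same sign within both sets numbered 0, and 1 with DESeq2, 39 with no filter and 9 with all 17 libraries. Those called with opposite signs numbered 2, and 11, 37 and 20 in the same settings.

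No gene followed through the settings changed sign with a call. With DESeq2 size factors in edgeR all 102 gene results kept their side of the threshold, and 87 did with limma. The replicate block called 0 genes over both sets (681 at an unadjusted p under 0.05). The numbers do not pair the libraries: deviations of same-numbered ESC and iPSC libraries correlated at 0.832, -0.802 and 0.787, and followed the set. ESC 4, at 7795960 fragments, was the shallowest library.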
